A study of Mus musculus with 6 samples.

Results

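Ifih1, Irf1 and Irf9 are 3 genes of the antiviral interferon response, and 23 of the 18624 peaks listed for the nuclear RNA-binding protein hnRNP UL1 lie at them. The peaks come from chromatin immunoprecipitation and sequencing (ChIP-seq) in RAW 264.7 cells, an established mouse macrophage line transformed by a virus. Cells were untreated (0 h) or had received lipopolysaccharide (LPS), the bacterial cell-wall component sensed by Toll-like receptor 4, at 100 ng/ml for 4 h or 10 h. Each time has 1 library made with an hnRNP UL1 antibody, and its peak table gives 1 point of 2 bp per peak with the nearest gene, and no height, extent or read depth. At Ifih1, Irf1 and Irf9 a point was counted when inside the gene or up to 5 kb upstream, or when its row named that gene. At all genes set beside them only the first part of this rule was used, unless stated otherwise. The 3 genes were chosen by their peaks in these same tables and by their place in the interferon pathway, so their numbers are a description and were not tested. With 1 library per time there is no replicate check and no p-value. The tables do not measure expression, so the labelled cell type was not checked against its markers.

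The product of Ifih1, the helicase MDA5, senses long double-stranded RNA in the cytoplasm and signals through the mitochondrial adaptor MAVS to induce type I interferon. Irf1 and Irf9 encode transcription factors of the interferon regulatory factor family. IRF1 is induced by interferon-gamma and NF-kB signals, and IRF9 is the DNA-binding subunit of ISGF3, the complex with STAT proteins that forms after type I interferon binds its receptor. ISGF3 binds the interferon-stimulated response element (ISRE), and the STAT dimers formed after interferon-gamma bind the gamma-activated site (GAS). In macrophages LPS leads to interferon-beta through the adaptor TRIF, which adds interferon signalling to the direct NF-kB response.

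The tables do not reach the same genes. They are ordered by Ensembl gene ID and end at ENSMUSG00000117337 (0 h), ENSMUSG00000027620 (4 h) and ENSMUSG00000022416 (10 h). Irf1 (ENSMUSG00000018899) and Irf9 (ENSMUSG00000002325) lie in the range of all times, which holds 1312 points at 0 h, 5298 at 4 h and 1152 at 10 h. Ifih1 (ENSMUSG00000026896) lies in the longer range of the 0 h and 4 h tables, with 2225 and 9045 points. Points naming Ifih1 as nearest gene are therefore beyond the end of the 10 h table, and an absence of such rows there carries no information.

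The starts of Ifih1 and Irf1 are shown because hnRNP UL1 points lay beside them. The sequences run from 250 bases before a RefSeq start to 50 after it (RefSeq, build GRCm38.p6, in the direction of transcription), and all 3 genes were matched by symbol. Capitals mark matches, on either strand, to an ISRE core of 2 GAAA runs with 2 bases between them, to a GAS of TTC and GAA with 3 bases between them, or to the NF-kB consensus. The 4 h point nearest to the Ifih1 sequence lay 270 bp before its first base, the first Irf1 sequence ended 142 bp before the 0 h point, and the second Irf1 sequence lay between the 0 h point, 18 bp before it, and the 4 h point, 109 bp after it.
Ifih1, chr2:62646206-62646505, minus strand: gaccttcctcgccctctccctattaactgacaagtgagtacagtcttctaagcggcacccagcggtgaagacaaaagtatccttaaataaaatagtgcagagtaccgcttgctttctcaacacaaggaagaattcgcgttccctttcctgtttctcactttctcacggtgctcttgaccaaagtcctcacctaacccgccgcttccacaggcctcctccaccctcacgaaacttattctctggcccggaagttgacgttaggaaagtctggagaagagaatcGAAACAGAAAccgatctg
Irf1, first start, chr11:53769764-53770063, plus strand: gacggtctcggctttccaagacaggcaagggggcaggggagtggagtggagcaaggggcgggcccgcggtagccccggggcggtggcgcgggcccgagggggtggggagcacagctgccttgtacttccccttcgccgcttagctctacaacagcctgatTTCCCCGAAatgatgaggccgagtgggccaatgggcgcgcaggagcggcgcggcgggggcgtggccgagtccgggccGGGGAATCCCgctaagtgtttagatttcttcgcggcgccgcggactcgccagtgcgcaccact
Irf1, second start, chr11:53770223-53770522, plus strand: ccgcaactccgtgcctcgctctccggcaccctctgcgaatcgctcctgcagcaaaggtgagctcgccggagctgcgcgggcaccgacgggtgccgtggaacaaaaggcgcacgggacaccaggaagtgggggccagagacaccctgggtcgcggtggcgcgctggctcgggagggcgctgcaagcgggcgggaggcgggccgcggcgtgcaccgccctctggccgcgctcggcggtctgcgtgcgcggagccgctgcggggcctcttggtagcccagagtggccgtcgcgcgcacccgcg

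The Ifih1 sequence held 1 ISRE core match, GAAACAGAAA, from 32 to 41 bases after the start. The first Irf1 sequence held 1 GAS match, TTCCCCGAA, from 90 to 82 bases before the start, and 1 NF-kB match, GGGGAATCCC, from 13 to 4 bases before it. The second Irf1 sequence and both Irf9 sequences (starts at 55603985 and 55604579 of chromosome 14) held no match to these patterns. Of 32851 RefSeq promoter sequences of this length 3.44% held the ISRE core, 8.30% the GAS and 8.46% the NF-kB pattern. A match is a run of letters, and binding of these factors was not measured. The Irf1 starts were rich in G and C, at 69.3% and 75.0%, with 32 and 43 CpG dinucleotides, more than in 90.5% and 97.4% of promoters. The Ifih1 start had 49.0% G and C and 14 CpG, and the Irf9 starts had 55.3% and 52.7% with 9 and 1 CpG.

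At Ifih1 (chromosome 2, 62595618 to 62646255, minus strand) 1 point was listed in untreated cells and 18 after 4 h of LPS. The 0 h point (62644144) lay in the gene, 2111 bp downstream of its 5' end, and no other 0 h point lay within 100 kb of the gene. The closest 0 h point outside was 866.3 kb away and named Psmd14. The 4 h points covered the gene from before its start to its last exon. Over the range that 0 h and 4 h share, a row of either time named 3371 protein-coding genes. A point at 0 h was found at 33.9% of them. Of these genes 80.6% had a point at 4 h, and 70.8% had more points at 4 h than at 0 h. Genes without a row were left out and the 4 h list is longer, which largely sets these shares at 4 h. A rise in number at 4 h was common among the genes kept. The number at Ifih1 was the less common part: 0.801% of the genes, 27 in all, had 18 points or more at 4 h.

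Of the 18 points at 4 h, 2 lay upstream of Ifih1, at 1104 and 520 bp before the 5' end, and 16 lay inside it. In the first 25% of the gene 6 points followed, at 2.38, 4.07, 5.52, 8.28, 9.19 and 10.2 kb from the 5' end. From 25 to 50% of its length there were 4, at 13.57, 16.92, 17.99 and 22.09 kb. From 50 to 75% there were 2, at 30.49 and 33.1 kb, and the rest held 4, at 39.95, 41.66, 46.48 and 49.59 kb. The points were thus spread along the whole gene, most closely near its 5' end. Between neighbouring points there were 584 to 8402 bp, with a median of 2754 bp, and the widest gap lay between 22.09 and 30.49 kb.

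**Figure D1:**
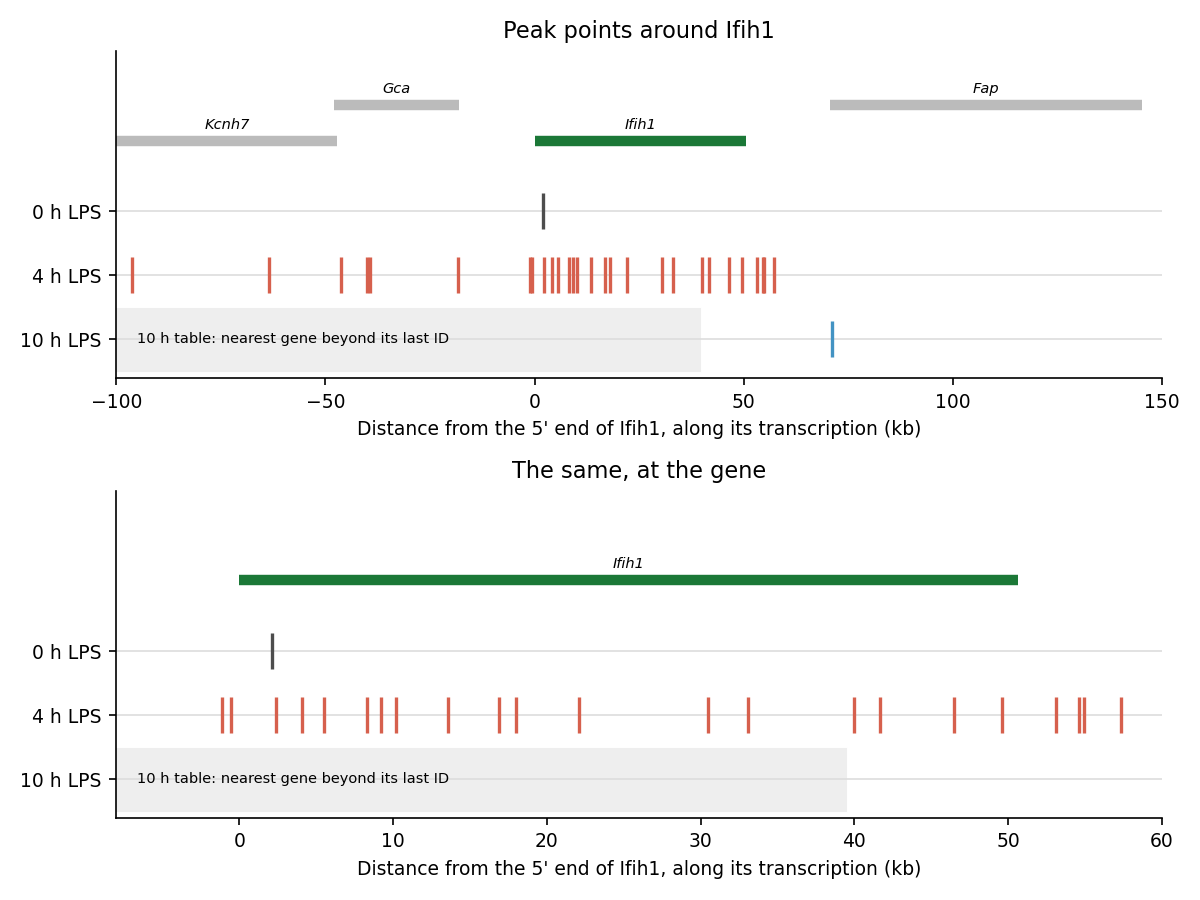
Peak points around Ifih1 by time of LPS, placed by distance from the 5' end of the gene along its transcription (kb), with 100 kb to each side above and the gene alone below; each tick is 1 point, bars are protein-coding genes of RefSeq, and grey marks where the nearest gene lies beyond the last ID of the 10 h table. The 0 h row holds 1 tick. In the lower panel the 4 h row holds 18 in the counted region and 4 more past the 3' end. The upper panel also shows 6 ticks at 4 h that name Gca and 1 at 10 h that names Fap.

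By the authors' annotation 9 of the 18 points lay in introns, 4 of them in intron 3 and 2 in intron 5 of 15. Another lay in exon 10 of 16 and another in the 3' UTR. The remaining 7 were annotated as promoter, within 3 kb of a transcript start. Only 3 of these 7 were within 3 kb of the RefSeq start of Ifih1. The other 4 were assigned to ENSMUST00000176388, a transcript whose start lies 6782 bp inside the gene, and they lay 4.07 to 9.19 kb from the 5' end. Promoter points at Ifih1 were thus partly points of the gene body.

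The nearest-gene column placed 4 of the 18 points elsewhere. The points in the 3' UTR, introns 13 and 11 and exon 10 of Ifih1 named Fap, the gene of a cell-surface protease of activated fibroblasts, because its start was the closer one. Rows naming Ifih1 therefore numbered 14 at 4 h and 1 at 0 h. All 4 h points of Ifih1 on the Fap side of position 62606774, midway between the Fap start and that of ENSMUST00000176388, named Fap, and none past it did. Fap (ENSMUSG00000000392) is within reach of the 10 h table, so the last 11.16 kb of Ifih1, 22.0% of the gene, can be read at 10 h also. There the tables listed 0 points at 0 h, 4 at 4 h and 0 at 10 h. The 1 row naming Fap at 10 h lay at 62575214, 20.4 kb past the 3' end of Ifih1.

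The series of 4 h points went on past the end of the gene. With neighbours at most 10 kb apart it comprised 22 points over 58.4 kb (62588911 to 62647359), of which 4 lay up to 6.71 kb beyond the 3' end, all in rows naming Fap. The next listed 4 h point on that side was 279.7 kb away. Points whose nearest gene lies beyond the last ID of the 4 h table are not listed, so this gap may hold some. On the other side 17.3 kb separated the series from the next point, 336 bp inside Gca, the gene of the calcium-binding protein grancalcin, which held the 6 other 4 h points within 100 kb by nearest gene. The region of 100 kb to both sides held 28 points at 4 h and 1 at 0 h. Just outside the counted region the closest 4 h point lay 2.5 kb past the 3' end of Ifih1.

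Per kb of gene and upstream sequence Ifih1 had 0.324 points at 4 h. Among the 86 genes with at least 10 points at 4 h the median was 0.124 per kb (range 0.00995 to 0.827), and 16 were denser than Ifih1. The median gap of 2754 bp compares with a median of 3656 bp over these genes, 30 of which had a smaller one. Of 484 other genes with a counted region 0.8 to 1.25 times as long as its own, 3 had 18 points or more at 4 h, and the median was 2 points at 4 h and 0 at 0 h. Ifih1 thus belonged to the densely covered genes of its length at 4 h and had 1 point, like many others, at 0 h: of the genes of this length 38.4% had a point then.

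The larger number at 4 h has to be read beside the length of the lists, since the 4 h table held 4.07 times the points of the 0 h table over this range. Ifih1 took up 0.449 of every 1000 points at 0 h (exact 95% Clopper-Pearson interval 0.0114 to 2.50), and 1.99 of every 1000 at 4 h (1.18 to 3.14). Dividing these shares gave 4.43 for 4 h over 0 h, and the exact interval from 0.699 to 184 includes 1. Dividing the numbers gave 18 (2.84 to 750). The intervals cover counting error only, and since neighbouring points cluster they are too narrow. The rule that chose Ifih1 used these numbers.

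The genes with the most similar numbers, by Euclidean distance over the 2 times, were Apbb1ip, Ptprj and Ap3b1, each with 1 point at 0 h and 18 at 4 h (distance 0). Apbb1ip encodes an adaptor between small GTPases and integrins, Ptprj a receptor tyrosine phosphatase and Ap3b1 a subunit of the AP-3 sorting complex. Pik3ap1, the gene of a phosphoinositide 3-kinase adaptor, followed with 0 and 17 (distance 1.41). These genes are 112.6 to 207.4 kb long, against 50.638 kb for Ifih1, and the likeness rests on 2 libraries.

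**Figure D2:**
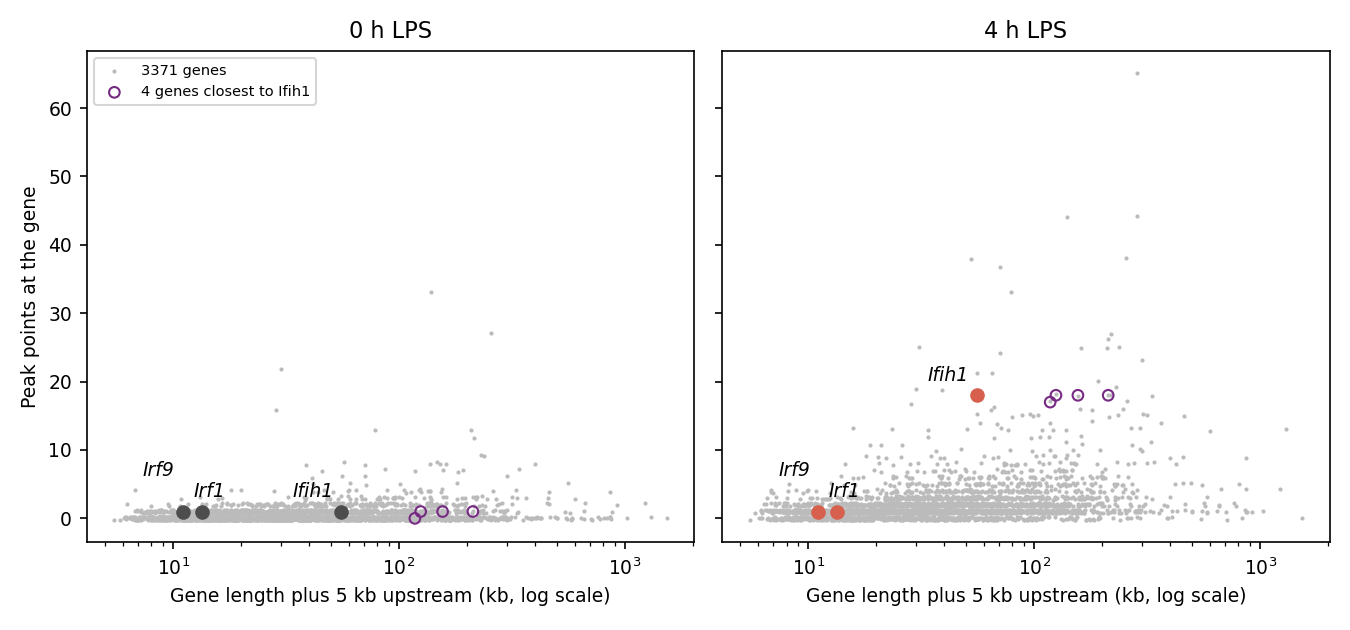
Number of points at each of 3371 genes (y axis) against the length of the counted region (x axis, kb, log scale) at 0 h and 4 h; grey dots are genes, with a small vertical jitter, filled dots the 3 members and open circles the 4 genes closest to Ifih1. Ifih1 moves from 1 to 18 points between the panels, and Irf1 and Irf9 stay at 1.

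Irf1 (chromosome 11, 53770014 to 53778374, plus strand) had 1 point at 0 h, 1 at 4 h and 0 at 10 h. The 0 h point (53770205) lay 191 bp downstream of the first RefSeq start, and 100 bp downstream of the transcript start by the authors' annotation. The 4 h point (53770631) lay 617 bp downstream of the first start and 158 bp downstream of the second. Both were annotated as promoter within 1 kb, on either flank of the second start sequence printed above. They were 426 bp apart. The 10 h point closest to Irf1 was 111.5 kb past the gene and named Slc22a5.

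Irf9 (chromosome 14, 55603985 to 55610030, plus strand) also had 1 point at 0 h, 1 at 4 h and 0 at 10 h. The 0 h point (55606541) lay 2556 bp from the 5' end of the gene and the 4 h point (55607246) 3261 bp from it, 705 bp apart. Both were annotated as promoter within 1 kb, by the starts of the transcripts ENSMUST00000145680 (721 bp upstream of the point) and ENSMUST00000126269 (28 bp downstream of it). The closest RefSeq starts of Irf9 were 1962 and 2667 bp away. At both Irf1 and Irf9 the transcript starts behind the promoter annotation lay inside the RefSeq span of the gene. The closest 10 h point was 51.1 kb away and named Dcaf11.

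**Figure D3:**
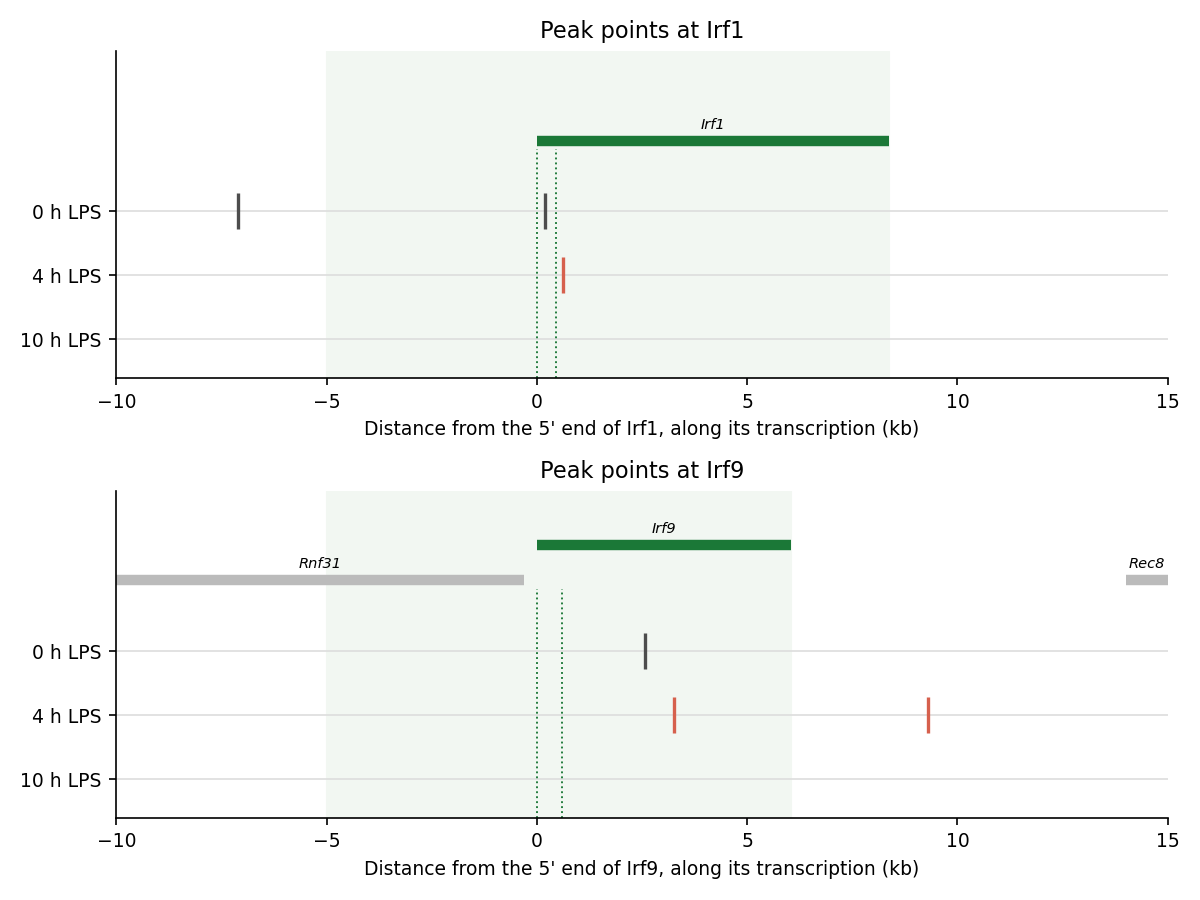
Peak points at Irf1 (top) and Irf9 (bottom) by time of LPS, placed by distance from the 5' end along transcription (kb); ticks are points, dotted lines RefSeq starts, bars protein-coding genes and the shaded area the counted region. The points of Irf1 sit at 0.19 and 0.62 kb beside its starts, and those of Irf9 at 2.56 and 3.26 kb inside the gene.

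In the range of all times a row named 2070 protein-coding genes. Of these 33.2% had a point at 0 h, 77.4% at 4 h and 27.5% at 10 h. Genes with a point at 0 h and at 4 h but none at 10 h made up 14.1%, and 4.98%, 103 genes, had exactly the numbers of Irf1 and Irf9. Of 285 other genes with a counted region about as long as that of Irf1 22.5% had a point at 0 h, 65.3% at 4 h and 17.9% at 10 h, and for Irf9 the values over 213 genes were 21.1%, 63.4% and 19.2%. As a share each gene held 0.762 per 1000 points at 0 h (0.0193 to 4.24) and 0.189 at 4 h (0.00478 to 1.05). At 10 h the count of 0 among 1152 points allows up to 2.60 per 1000 (3 counts). This limit lies above the shares at 0 h and 4 h, so the 0 does not show a lower share at 10 h.

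Between times no member point kept its position to the base. The 0 h points of Ifih1 and Irf1 lay 265 and 426 bp from a 4 h point, and that of Irf9 lay 705 bp away. Within 500 bp of a 4 h point were thus 2 of the 3, and 18.0% of all 0 h points of this range. The members were chosen by their points in these tables, so these numbers are not comparable. At Ifih1, with 18 points in 55.638 kb, a 4 h point near the 0 h point is one of many. Within 100 kb of Irf1 there was 1 position listed at both times: 53706846, 448 bp inside Rad50, which encodes a subunit of the MRN complex that binds DNA breaks. It was the only identical position among the 2225 points at 0 h and 9045 at 4 h of this range, and was singled out after the values were seen.

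Around Irf1, Rad50 had 1 point at 0 h and 2 at 4 h, and 3 points at 4 h named Slc22a5, the gene of a carnitine transporter. A 0 h point 7.1 kb upstream of Irf1 named ENSMUSG00000099153, whose ID the 4 h and 10 h tables do not reach. Of the 5 kb upstream of Irf1, the outer 1.82 kb is closer to that gene's start, so a point there could not be seen at 4 h or 10 h. Around Irf9 the 4 h points named Dcaf11 (2 points), Psme1, Emc9, Rec8 and Tm9sf1 (1 each), and at 0 h no point but that of Irf9 lay within 100 kb. Psme1 encodes an interferon-inducible subunit of the proteasome activator PA28, and its point lay 39 bp from a transcript start. The Rec8 point lay 3.3 kb past the 3' end of Irf9, the closest outside the counted region. No row names Rnf31, whose end adjoins Irf9, so whether the 4 h and 10 h tables reach its ID was not determined.

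Other genes of the pathway were counted by points in the gene or 5 kb upstream alone. They came from a list of 66 genes in 6 roles that was written with earlier results of these data known. A row of the 0 h or 4 h table named 21 of them in the shared range, members without a row being left out. As for all 3371 genes, this choice by row largely sets how many have a point at 4 h. Of these 21, 20 had a point at 4 h and 8 at 0 h, with a median of 3 points at 4 h and 0 at 0 h, against medians of 1 and 0 over all 3371 genes, of which 80.6% had a point at 4 h and 33.9% at 0 h. The count at 0 h is thus near the background. More points at 4 h than at 0 h were found at 18 of the 21, against 70.8% of all genes, and fewer at 1, against 10.7%. Ifih1, Irf1 and Irf9 were chosen by their peaks. Without them 17 of the 18 others had a point at 4 h and 5 at 0 h. These 18 held 91 points at 4 h and 6 at 0 h.

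Of 10 listed sensors 4 were named in the shared range, and the other 3 had at most 2 points at 4 h. Dhx58, which encodes LGP2, the regulatory relative of MDA5, had 1 point at 0 h and 0 at 4 h and was the gene of the list with fewer points at 4 h. Zbp1, a sensor of Z-form nucleic acids, and Eif2ak2, the gene of the RNA-activated kinase PKR, had 2 points each at 4 h and 0 at 0 h. Downstream of the sensors, Trim25 had 11 points at 4 h, 0 at 0 h and 2 at 10 h, and Rnf135 had 7, 0 and 0. Both encode ubiquitin ligases that act on the sensor RIG-I. Tbk1, the gene of the kinase that activates IRF3, had 5 points at 4 h, 1 at 0 h and 1 at 10 h, and Traf3 had 2, 0 and 1.

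In the family of Irf1 and Irf9, Irf4 was the only other gene named in the shared range, with 1 point at 0 h, 2 at 4 h and 0 at 10 h. None of these 3 named factor genes had a point at 10 h. Of the 13 list genes named in the range of all times 5 had one, and of all 2070 genes 27.5%, so neither count stands apart. The complete 0 h table was also searched up to 5 kb beyond either end of each gene, and 6 of 8 interferon regulatory factor genes had a point: Irf2 had 3, and Irf1, Irf4, Irf5, Irf8 and Irf9 had 1 each. Irf3 and Irf7 had 0. For the whole list the count was 23 of 66 (34.8%). Without Ifih1, Irf1 and Irf9, which were chosen by their peaks, it was 20 of 63 (31.7%). Among all 21900 protein-coding genes 19.3% had one, and the difference was not tested. Of the interferon-induced effectors 2 of 21 had a 0 h point (9.52%).

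Of 9 listed genes that act between interferon and the factors 6 were named in the shared range, and 5 of these had more than 1 point at 4 h, against 41.9% of all genes. Their counted regions of 21.9 to 66.3 kb were longer than those of Irf1 and Irf9 (13.4 and 11.0 kb). Jak2, a receptor-bound kinase gene, had 16 points at 4 h and 0 at 0 h. By rows naming the gene as nearest Jak2 had 22 at 4 h, more than the 14 of Ifih1. Stat3, the gene of a transcription factor that JAK kinases activate, had 6 and 0. The receptor genes Ifnar2, Ifngr1 and Ifngr2 had 3 each at 4 h, with 0, 2 and 1 at 0 h, and Ifnar1 had 1 and 0. Ptpn2, a phosphatase gene that limits JAK-STAT signalling, had 2 and 0. Among the effectors the adjacent Cmpk2 and Rsad2 had 13 and 11 points at 4 h with 0 at 0 h, and Ifi35 had 2 and 0.

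**Figure D4:**
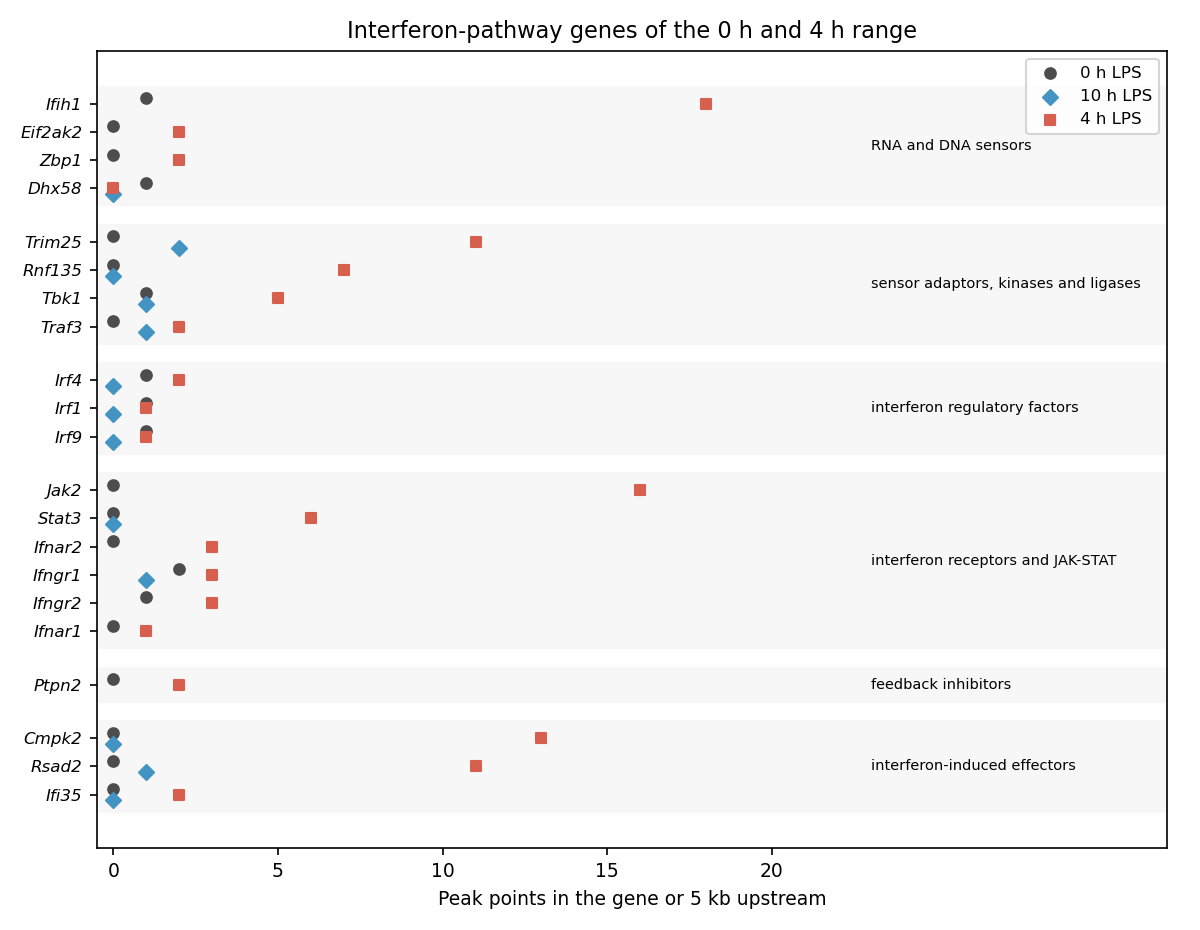
Points in the gene or 5 kb upstream (x axis) for the 21 interferon-pathway genes named in the 0 h and 4 h range (y axis, by role); circles are 0 h, squares 4 h and diamonds 10 h, with no diamond where the 10 h table does not reach the gene. Counted this way Ifih1 has the most points of these genes at 4 h, followed by Jak2 with 16; by rows naming the gene the order turns, with 14 and 22.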

How the data were processed

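Per the labels, chromatin of RAW 264.7 cells was prepared by an enzymatic kit, and ChIP and input DNA were sequenced at 0, 4 and 10 h of LPS, 1 library each. The work started from the authors' 3 deposited ChIP peak tables, without the 3 inputs. The submitters' processing notes name the tools MACS2 2.1.0, BWA 0.7.12 and CASAVA 1.8 and the build GRCm38 (mm10). Their roles, settings and thresholds are not given in the sources used here, nor is what each point of a peak is. Depth is unknown. The tables hold 8425, 9046 and 1153 complete rows, and 1 incomplete row of the 4 h table was left out.

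Gene spans came from RefSeq GRCm38.p6 by symbol and chromosome, strands from the tables. Of 3420 gene names in the 0 h and 4 h range 3371 matched protein-coding genes, and 2070 of 2097 in the range of all times. The end genes of the ranges were left out, and points were counted by nearest genes within a range. No test was made. Counting was tested on simulated points, and 200 of 200 planted genes of the 0 h and 4 h range were recovered. Members and lists were chosen with earlier results of these data known. Named were the members, neighbours within 100 kb, up to 4 list genes per role by 4 h points with all that had fewer at 4 h, and the 4 genes closest to Ifih1. The 2 JAK-STAT genes and the factor genes beyond this rule were named after their values were seen. Some genes are not reported here. Alternatives were other counted regions, rows by nearest gene, merging of points closer than 1 kb, shares per 1000 points and other distances for sharing. Python 3.11.15, pandas 2.3.3 and scipy 1.17.1 were used.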

Additional observations from a re-analysis of the deposited data

How the results depend on the processing

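Of 55 values recomputed with other settings, 53 moved by no more than 1.5 times or stayed within their counting interval. Among them were the 16 to 21 points of Ifih1 at 4 h over other counted regions and with close points merged. Most of the 55 are counts of 0 or 1 with few points nearby, so their stability says little. Counted by nearest gene Ifih1 had 14, fewer than the 22 of Jak2. With 5 kb to both sides Irf9 had 2 points at 4 h. Within 200 bp, 0 of the 3 member points at 0 h lay near a 4 h point, and within 1000 bp all 3 did, so their sharing depends on that distance. The ratio of 4 h to 0 h at Ifih1 was 4.43 by shares in place of 18. It was kept among the 53 only because the interval around 18 is wide, from 2.84 to 750. With 1 library per time no paired or left-out analysis was possible, and unknown depth limits every count near 0.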
